A study of Mus musculus with 13 samples.

Results

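The annexins described here are the 10 mouse genes Anxa1, Anxa2, Anxa3, Anxa4, Anxa5, Anxa6, Anxa7, Anxa8, Anxa9 and Anxa11. They were chosen by gene symbol, as the probe sets annotated to exactly these names, out of 19934 genes with a probe set of their own on the array. All 10 passed the filter on low values, as did 15875 genes in all. Levels were measured with a mouse Affymetrix gene array in epithelium that dispase had freed from the underlying tissue, on 13 arrays. The 4 groups were esophagus of L2-Cre p120 flox/flox mice (4 animals: 193, 307, 313 and 335), esophagus of L2-Cre mice with unfloxed p120 (+/+, 3 animals: 214, 216 and 217), forestomach masses of L2-Cre p120 flox/flox mice (3 animals: 412, 426 and 510) and forestomach of the L2-Cre p120 +/+ mice (the same 3 animals as in the control esophagus). All carried Cre and a mixed C57Bl/6 and 129 background, and no age is stated in the labels. The L2 promoter is known for its activity in the stratified squamous epithelium of the upper digestive tract. In the forestomach, all flox/flox tissue came from masses, and there genotype and mass cannot be told apart. In such bulk samples a lower level can come from fewer cells of a type or from less RNA per cell, and these cannot be told apart.

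Annexins are proteins that bind negatively charged membrane lipids when calcium is present. They share a core of repeated domains and differ in the tail before it, through which several of them bind S100 proteins or other partners. They are known for linking membranes to actin, for traffic of vesicles and endosomes and for the repair of torn plasma membrane. In stratified squamous epithelium Anxa1 is a substrate that transglutaminase joins to the cornified envelope, and Anxa2 sits at the cell membrane with S100a10.

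Levels below are log2 intensities of 1 probe set per gene, and a difference of 1 is a 2-fold difference on the linear scale. Each probe set has its own response, so levels were compared between samples and never between genes. Ctnnd1, the gene of p120, was at 9.95 to 10.13 in flox/flox esophagus, against 10.21 to 10.50 in control esophagus, and at 9.51 to 9.91 in the masses, against 10.14 to 10.40 in control forestomach. All 10 squamous markers (Krt5, Krt14, Krt13, Krt4, Trp63, Dsg3, Dsp, Perp, Cdh1 and Sfn) were above the filter on every array, with means of 12.16 to 12.53. Some arrays stood apart in other tissues' genes. Mass 426 was the highest array for all 9 glandular stomach markers measured, by 3.53 to 7.50, with a list mean of 11.83 against 5.32 to 5.90 on the other 12 arrays. Esophagus control 214 and flox/flox esophagus 307 and 335 had skeletal muscle means of 8.50, 8.23 and 9.75, against 5.44 to 6.03 on all other arrays. Fibroblast means on those 3 arrays were 10.50, 9.03 and 9.62. Smooth muscle means were 10.44, 10.22 and 8.23 on them, but also 11.33 in mass 426, 8.68 in mass 412 and 8.49 in forestomach control 214, against 5.64 to 6.85 on the other 7 arrays. Results are therefore also given without these arrays where the call or the direction changed.

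**Figure D1:**
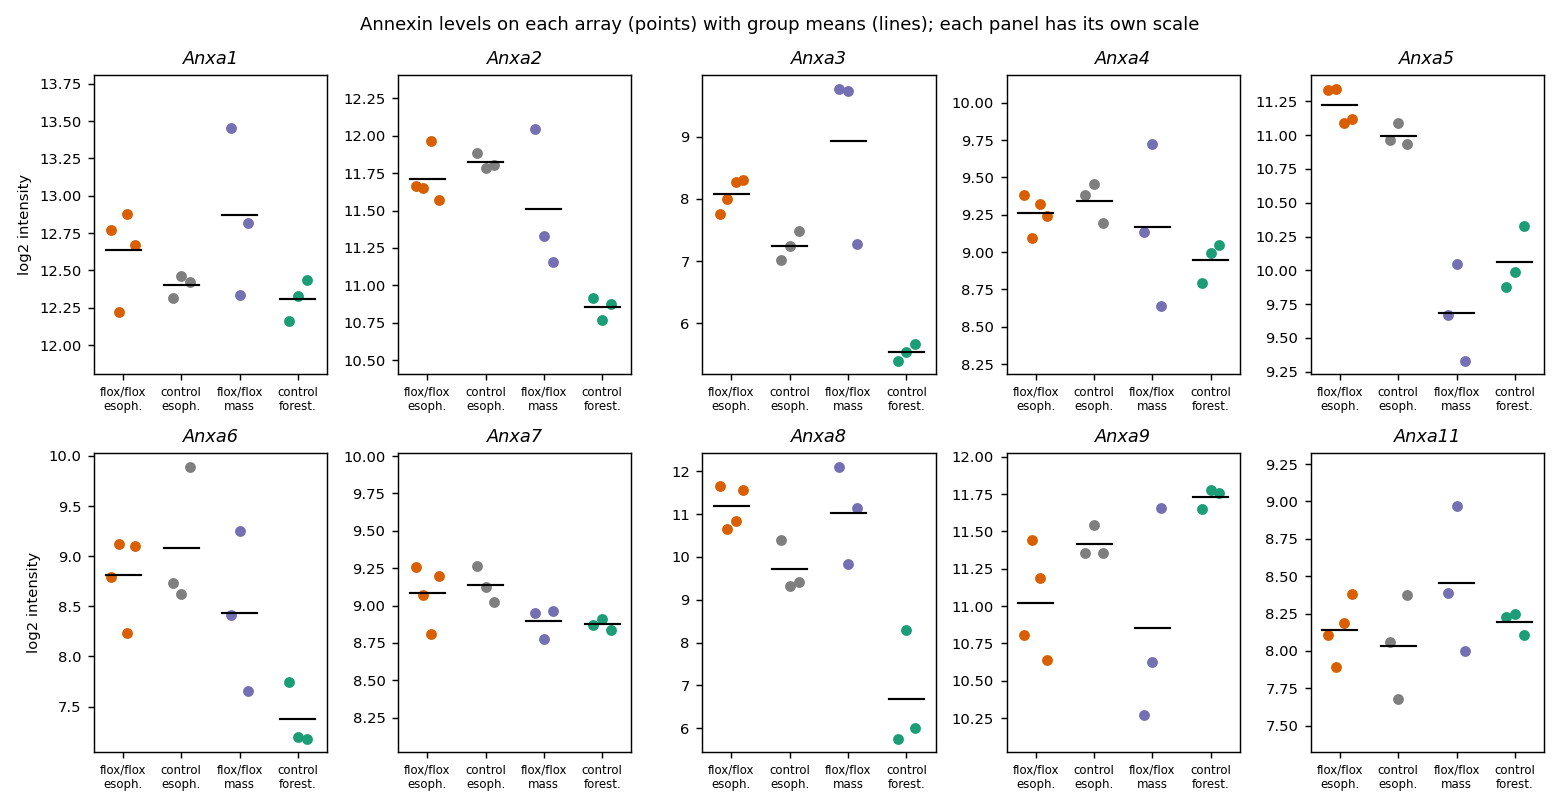
Log2 intensity of each annexin (vertical axis, a scale of its own in each panel) on the 13 arrays, as points, with group means as lines; from left to right flox/flox esophagus, control esophagus, flox/flox forestomach mass and control forestomach. Anxa8 and Anxa3 lie lowest in control forestomach, and the 3 masses are spread over 2.28 and 2.50 log2 units for these genes.

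In the forestomach, flox/flox masses were compared with control epithelium to ask what differs in masses of mice with floxed p120. Ctnnd1 itself was lower in the masses by -0.56 (SE 0.12, limma adjusted p = 0.0145), so its signal was reduced there and not absent. Of the 10 annexins, Anxa8, Anxa3 and Anxa2 rose and 0 fell. Anxa8 rose 20.1-fold and Anxa3 rose 10.5-fold, while Anxa2 rose 1.58-fold. Among all genes tested, 2.31% were called higher and 8.4% lower (limma with Benjamini-Hochberg adjustment, adjusted p under 0.05). The median difference was 0.41 over the 10 annexins and 0.01 over all genes tested. The groups did not overlap for these same 3 annexins, all with the masses higher, where 27.9% of all genes tested did not overlap and 10.3% had masses above every control.

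Anxa8, an annexin found on late endosomes and in stratified epithelium, was at 12.10, 9.82 and 11.14 in masses 412, 426 and 510, against 5.76, 8.30 and 6.02 in control forestomach of animals 214, 216 and 217. Each mass was above each control, and control 216 stood well above its 2 companions. The rise was 4.33 on the log2 scale (SE 0.68, n = 3 and 3, limma adjusted p = 0.00326), rank 11 by size among the 1700 genes called. It was called under each of the 27 alternatives, with values of 3.79 to 5.13. The sequence before its start is shown because Anxa8 was called in the forestomach and, with the opposite sign, between the control tissues. The only other annexin called in both is Anxa2, so its sequence stands beside it.
Anxa8, chr14:34085729-34085978, plus strand: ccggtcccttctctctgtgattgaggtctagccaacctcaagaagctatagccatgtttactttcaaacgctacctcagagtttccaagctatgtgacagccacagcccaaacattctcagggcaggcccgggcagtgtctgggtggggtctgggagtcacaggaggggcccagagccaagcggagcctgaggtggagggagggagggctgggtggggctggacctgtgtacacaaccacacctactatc
Anxa2, chr9:69453433-69453682, plus strand: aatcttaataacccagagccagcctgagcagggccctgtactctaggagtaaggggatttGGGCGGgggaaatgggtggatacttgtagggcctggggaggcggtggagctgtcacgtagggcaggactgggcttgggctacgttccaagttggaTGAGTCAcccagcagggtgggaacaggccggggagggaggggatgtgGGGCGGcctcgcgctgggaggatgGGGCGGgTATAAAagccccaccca
These are the 250 bases before each gene's start, 5′ to 3′, from RefSeq on build GRCm38.p6, and capitals mark matches on either strand to the AP-1 motif TGANTCA, the TATA motif TATAAA, the CCAAT motif and the GC box GGGCGG. In the Anxa2 window there is 1 AP-1 match (95 bases before the start), 1 TATA match (17 bases before) and 3 GC boxes, with no overlap between them. The Anxa8 window holds none of these 4 letter strings. Among 32851 windows of the same length, 6.75% hold the AP-1 motif, 12.4% TATAAA, 33.8% CCAAT and 32.7% GGGCGG. Of the 10 annexins, 8 have a promoter entry, and the AP-1 motif was found in that of Anxa2 alone. A match of letters is a description of the sequence and was not tested against the levels.

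Anxa3, an annexin abundant in neutrophils and also made by epithelia, was at 9.77, 9.73 and 7.27 in masses 412, 426 and 510, against 5.40, 5.54 and 5.67 in control forestomach of 214, 216 and 217. The groups were apart, and mass 510 lay well below the other masses. The rise was 3.39 (SE 0.51, limma adjusted p = 0.00253), rank 24 by size among the genes called, and it was called under each of the 27 alternatives (2.97 to 4.22). Neutrophil markers, 9 of 12 of which passed the filter, had list means of 6.16 to 7.02 in the masses, against 5.07 to 5.48 in control forestomach. Their order among the masses (412, 510, 426) was not that of Anxa3. Markers of glands and simple epithelium, of which 7 of 7 passed the filter, had means of 8.06, 10.45 and 7.13 in masses 412, 426 and 510, against 6.71 to 6.87 in control forestomach. As with Anxa3, mass 510 was the lowest of the masses. Mass 426 was above 412 in these markers, while Anxa3 was nearly the same in both (9.73 and 9.77). Over the 13 arrays, Anxa3 had a Pearson r of 0.58 with these markers and 0.64 with the neutrophil markers. After group means were taken out, these were 0.69 and 0.06. The part of either list in the rise of Anxa3 was not tested.

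Anxa2, which forms a complex with S100a10 at the plasma membrane, was at 12.04, 11.33 and 11.16 in masses 412, 426 and 510, against 10.91, 10.77 and 10.88 in control forestomach of 214, 216 and 217. The groups did not overlap, and the distance between mass 510 and control 214 was small. The rise of 0.66 (SE 0.19) passed narrowly, with a limma adjusted p of 0.0467. The call was lost under 17 of the 27 alternatives, with adjusted p up to 0.166. Without mass 412 the difference was 0.39 (adjusted p = 0.0777).

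Anxa1, the annexin of the cornified envelope and a regulator of inflammation through formyl peptide receptors, was at 13.45, 12.34 and 12.82 in masses 412, 426 and 510, against 12.16, 12.33 and 12.43 in control forestomach of 214, 216 and 217. Mass 426 lay within the control range and the other masses above it. The difference of 0.56 (SE 0.24) did not pass (limma adjusted p = 0.167). Without mass 426, which carried the glandular stomach genes, it was 0.83 (SE 0.21, adjusted p = 0.0288). Stress keratins (Krt6a, Krt6b, Krt16 and Krt17) had means of 12.89, 10.60 and 12.77 in masses 412, 426 and 510, against 6.96 to 8.19 in control forestomach. Mass 426 was thus the lowest mass in these keratins as well as in Anxa1 and Anxa8. Among the controls, 216 was lowest in these keratins (6.96) but highest in Anxa8 (8.30).

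Anxa6, which has a duplicated core and is known in muscle, fibroblasts and caveolae-rich membranes, was at 8.41, 9.25 and 7.65 in masses 412, 426 and 510, against 7.74, 7.19 and 7.18 in control forestomach of 214, 216 and 217. Mass 510 was below control 214, so the groups overlapped. The difference of 1.07 (SE 0.42) did not pass (limma adjusted p = 0.133), but without mass 510 it was 1.46 (adjusted p = 0.0383). Fibroblast markers, of which 10 of 10 passed the filter, moved with it: their mean was 8.17, 8.88 and 6.97 in the same masses, against 7.13, 6.43 and 6.41 in the controls. Smooth muscle markers, of which 5 of 5 passed the filter, had means of 8.68, 11.33 and 6.85 in these masses, against 8.49, 5.95 and 5.91 in these controls, the same order among the masses as Anxa6. The part of either list was not tested. A second probe set annotated to Anxa6 stayed between 6.23 and 6.84 on all 13 arrays and did not follow the first. It has the lower mean and is not used here.

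Anxa9, whose core lacks the usual calcium-binding residues and which is known in suprabasal squamous cells, was at 10.27, 10.63 and 11.66 in masses 412, 426 and 510, against 11.65, 11.78 and 11.76 in control forestomach of 214, 216 and 217. Masses 412 and 426 were low and mass 510 was at the control level. The difference of -0.88 (SE 0.30) did not pass (limma adjusted p = 0.0833), and without mass 510 it was -1.28 (SE 0.21, adjusted p = 0.00300). Anxa5, the phosphatidylserine-binding annexin used as a probe of dying cells, was at 9.67, 10.05 and 9.33 in masses 412, 426 and 510, against 9.88, 9.99 and 10.33 in controls 214, 216 and 217. Mass 426 lay among the controls and the other masses below them. Its difference of -0.38 (SE 0.17) did not pass (adjusted p = 0.198), and without mass 426 it was -0.56 (SE 0.16, adjusted p = 0.0415).

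The remaining annexins differed little in the forestomach. Anxa4, known in secretory epithelia, was at 9.13, 9.72 and 8.64 in masses 412, 426 and 510 and between 8.79 and 9.05 in control forestomach, a difference of 0.22 (SE 0.21, limma adjusted p = 0.582) that was -0.06 without mass 426. Anxa11, which has a long proline-rich tail that binds the calcium sensor Pdcd6, was at 8.39, 8.97 and 7.997 in these masses and between 8.11 and 8.25 in controls. Its difference of 0.26 (SE 0.23, adjusted p = 0.553) was -6.67e-05 without mass 426. Mass 426 was the highest array of all for Anxa11 and Anxa4. Anxa7, the other annexin with such a tail, had the narrowest spread of the 10 genes, with 8.78 to 8.96 in the masses, against 8.84 to 8.91 in control forestomach, and a difference of 0.02 (95% interval -0.24 to 0.29).

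**Figure D2:**
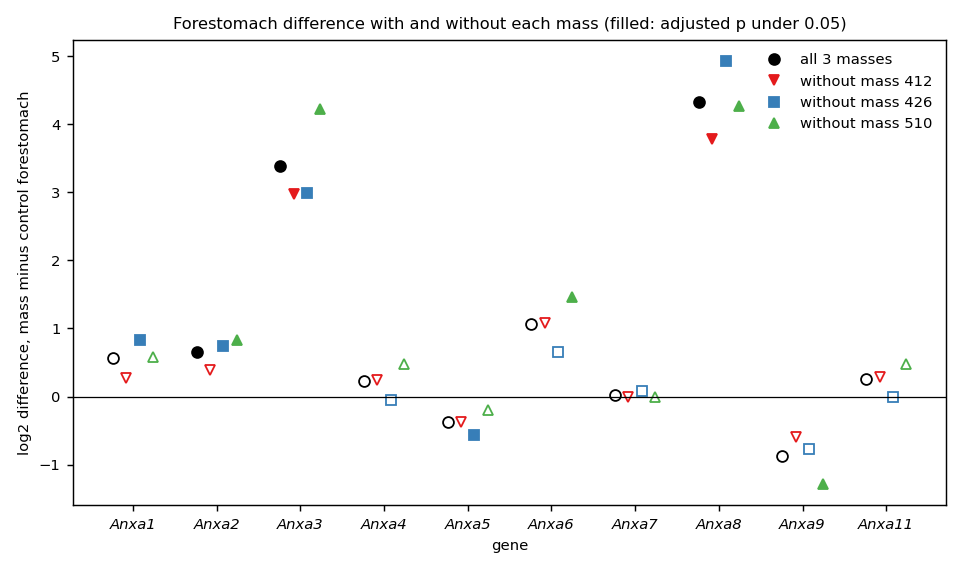
Log2 difference of the forestomach masses from control forestomach (vertical axis) for each annexin (horizontal axis), with all 3 masses and with each mass left out; filled symbols had a limma adjusted p under 0.05. Anxa8 and Anxa3 are filled in all 4 fits, while Anxa1 and Anxa5 are filled only without mass 426 and Anxa6 and Anxa9 only without mass 510.

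The number of annexins called in the forestomach therefore depended on single masses. It was 3 with all masses, 2 without mass 412 (Anxa3 and Anxa8), 5 without mass 426 (Anxa1, Anxa2, Anxa3 and Anxa8 in their direction above, with Anxa5 lower) and 5 without mass 510 (Anxa2, Anxa3, Anxa6 and Anxa8 higher, with Anxa9 lower). Of all genes tested in those fits, 7.52% were called without mass 412, 11.6% without mass 426 and 14.2% without mass 510, against 10.7% with all masses. The masses were the most spread group for 8 of the 10 annexins. The median SD of an annexin was 0.55 in the masses and 0.13 in control forestomach, where over all genes tested it was 0.25 and 0.11. The SE of the fit pools the spread of all 4 groups, so SE and p-values of comparisons with the masses can be too small.

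Anxa10, an annexin known from gastric epithelium, was not among the 10 genes and did not pass the filter, since only 1 array was high. It stood at 11.78 in mass 426, against 3.56 and 3.84 in masses 412 and 510, and between 3.39 and 3.82 on the other 10 arrays. On mass 426 it moved with the glandular stomach genes, among them gastrokine Gkn1 at 13.08 and trefoil factor Tff1 at 13.39. Anxa13, known in intestine and kidney, was between 4.47 and 5.26 on all arrays.

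**Figure D3:**
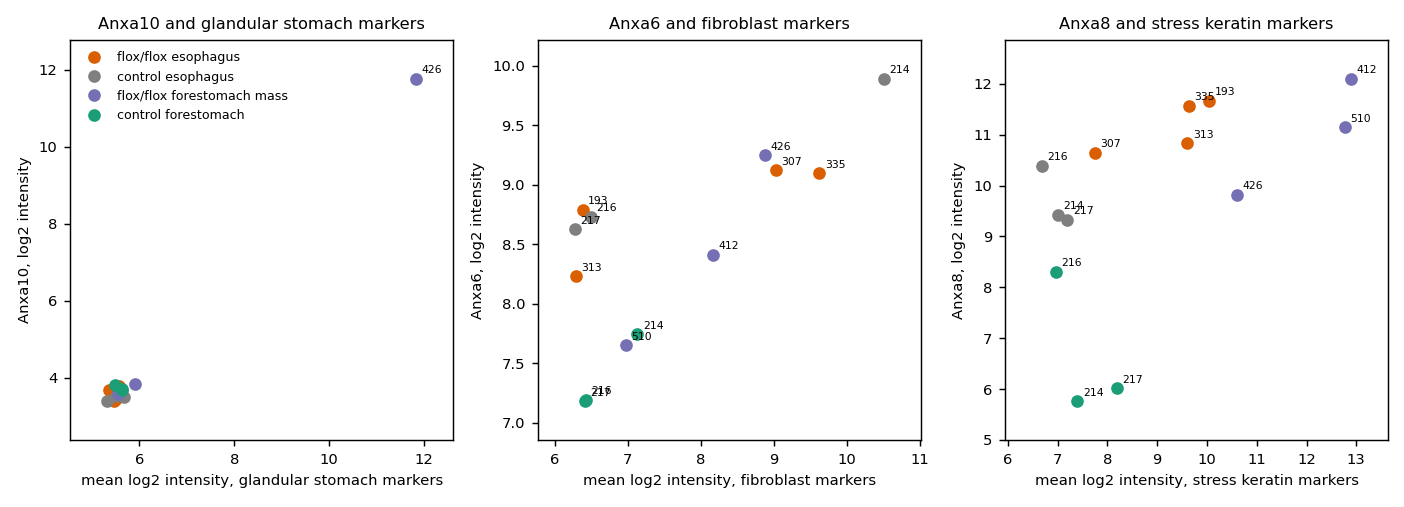
Log2 intensity of Anxa10, Anxa6 and Anxa8 (vertical axes) against the mean log2 intensity of glandular stomach, fibroblast and stress keratin markers (horizontal axes), 1 point per array, coloured by group and labelled with the animal; in the Anxa10 panel only 426 is labelled. Mass 426 stands alone for Anxa10 at 11.78, and esophagus control 214 is the highest array for Anxa6 at 9.89.

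In the esophagus, which formed no labelled mass, flox/flox epithelium was compared with control epithelium. Ctnnd1 itself differed by -0.29 (SE 0.11) there and did not pass (limma adjusted p = 0.637). None of the 10 annexins passed the test, and 1 of them (Anxa8) had an unadjusted p under 0.05 (limma), as did 1108 of all genes tested. Of all genes tested, 0.0126% were called. The median difference was 0.03 over the annexins and 0.01 over all genes. Anxa8 and Anxa3 were the annexins whose groups did not overlap, 2 of 10, both with flox/flox higher. Of all genes tested, 4.18% had every flox/flox array above every control and 6.1% had every one below.

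Anxa8 was at 11.67, 10.64, 10.84 and 11.57 in flox/flox animals 193, 307, 313 and 335, against 9.42, 10.39 and 9.33 in control esophagus of 214, 216 and 217. The lowest flox/flox array was close to the highest control. The difference was 1.46 (SE 0.63, n = 4 and 3, 95% interval 0.08 to 2.85, limma adjusted p = 0.696). Stress keratin means were 10.05, 7.74, 9.61 and 9.64 in the same flox/flox animals, against 6.69 to 7.19 in controls. Of the flox/flox animals, 307 was lowest for both Anxa8 and these keratins. Control 216 went the other way, with the lowest mean of these keratins (6.69) and the most Anxa8 of the controls. After group means were taken out, Anxa8 and these keratins had a Pearson r of 0.32 over the 13 arrays. Anxa3 was at 7.76, 7.995, 8.28 and 8.30 in flox/flox animals 193, 307, 313 and 335, against 7.49, 7.01 and 7.25 in controls 214, 216 and 217. Its groups were apart by less than the range within either of them, with a difference of 0.83 (SE 0.47, 95% interval -0.20 to 1.87, adjusted p = 0.800).

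Anxa9 was at 10.81, 11.44, 11.19 and 10.64 in flox/flox esophagus 193, 307, 313 and 335, against 11.36, 11.35 and 11.54 in controls 214, 216 and 217. Animals 193 and 335 were the low ones, and the difference of -0.40 (SE 0.28, limma adjusted p = 0.887) did not pass. Squamous differentiation markers, 13 of 14 on the array, had means of 10.66, 10.997, 10.98 and 10.71 in the same flox/flox animals, against 11.06 to 11.13 in controls, lowest in the animals with the least Anxa9. Anxa5 was at 11.33, 11.34, 11.09 and 11.12 in flox/flox animals 193, 307, 313 and 335, against 10.93, 10.97 and 11.09 in controls 214, 216 and 217. The groups touched, with a difference of 0.22 (SE 0.16, adjusted p = 0.892). Anxa6 was at 8.79, 9.12, 8.23 and 9.10 in these flox/flox animals, against 9.89, 8.73 and 8.62 in these controls. Its highest esophagus arrays were the 3 with skeletal muscle and fibroblast genes, and its difference of -0.27 (SE 0.39) was 0.13 without control 214.

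Anxa1 was between 12.23 and 12.88 in flox/flox esophagus, against 12.32 to 12.46 in controls, a difference of 0.24 (SE 0.22, limma adjusted p = 0.949). Animal 307, which was low in the stress keratins, was also the low flox/flox array for Anxa1. Anxa2 was at 11.66, 11.65, 11.97 and 11.57 in flox/flox esophagus 193, 307, 313 and 335, against 11.80, 11.88 and 11.78 in controls 214, 216 and 217 (difference -0.11, 95% interval -0.50 to 0.28). The differences of Anxa4, Anxa7 and Anxa11 were -0.08, -0.05 and 0.11, with overlapping groups for each. For these 3 genes the 95% intervals lay within -0.51 to 0.58.

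The changes of both tissues were set against each other to ask whether the forestomach difference exceeded the esophagus difference. None of the 10 annexins passed that test, while 5 had an unadjusted p under 0.05 (limma), as did 1664 of all genes tested, and 0.139% of all genes were called, 0.0819% higher and 0.0567% lower. Anxa8 differed more in the forestomach by 2.87 (SE 0.93, adjusted p = 0.275), Anxa3 by 2.56 (SE 0.69, adjusted p = 0.183), Anxa6 by 1.34 (SE 0.57, adjusted p = 0.441) and Anxa2 by 0.77 (SE 0.26, adjusted p = 0.299). Anxa5 ran the other way, by -0.60 (SE 0.24, adjusted p = 0.385). Without mass 510, whose Anxa3 was the lowest of the masses, the Anxa3 value was 3.38 (SE 0.23, adjusted p = 0.000217). It was the only annexin called in any of the 26 alternatives of this test.

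**Figure D4:**
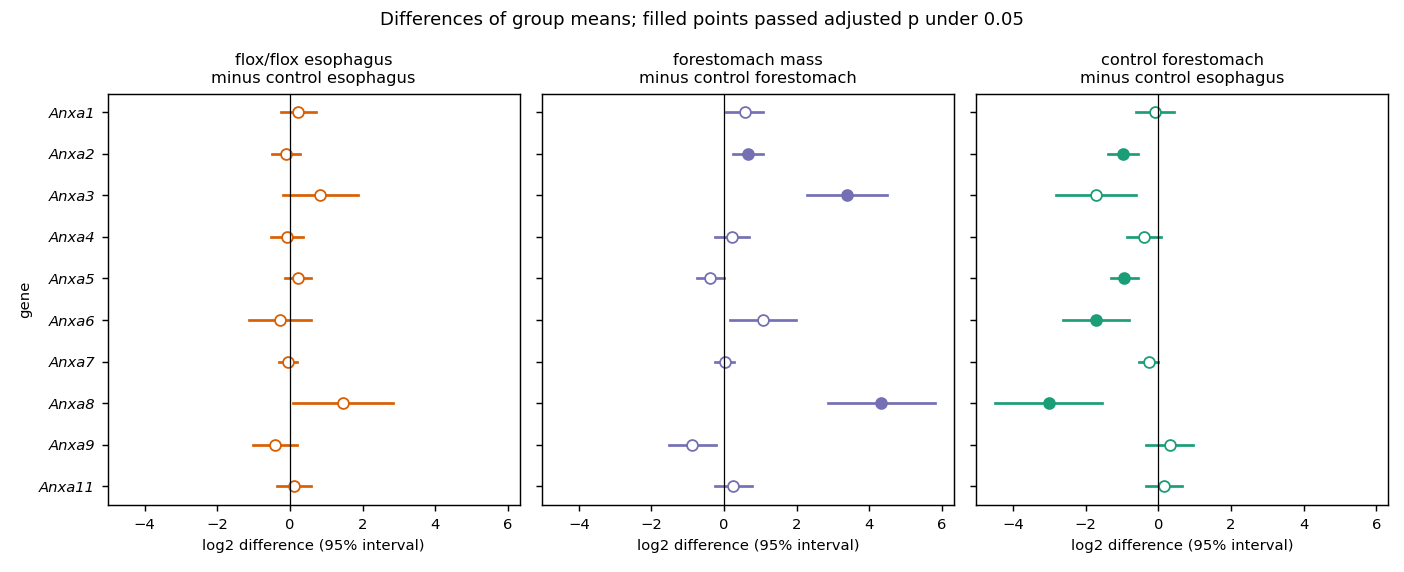
Differences of group means on the log2 scale (horizontal axis) with 95% intervals for each annexin (rows), in flox/flox against control esophagus, forestomach masses against control forestomach, and control forestomach against control esophagus; filled points had a limma adjusted p under 0.05. Anxa8 is at 1.46, 4.33 and -3.02 in the 3 panels, and the panels on the masses and on the control tissues share the control forestomach arrays.

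Control forestomach was compared with control esophagus, from the same 3 animals, to describe the annexins of both squamous epithelia without floxed p120. Anxa8, Anxa6, Anxa2 and Anxa5 were lower in the forestomach, 4 of the 10 annexins, and 0 were higher, where 3.16% of all genes tested were called lower and 3.51% higher, 6.67% in all. The median difference was -0.67 over the annexins and 0.02 over all genes. Anxa8 was 8.12-fold lower, Anxa6 3.27-fold, Anxa2 1.96-fold and Anxa5 1.91-fold. The forestomach lay below the esophagus on every array for 7 annexins, and above it for Anxa9. Of all genes tested, 37.3% did not overlap, 19.3% with forestomach lower and 18% with it higher.

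Anxa8 averaged 6.69 ± 1.40 in control forestomach and 9.71 ± 0.59 in control esophagus (SD, n = 3 each), a difference of -3.02 (SE 0.68, limma adjusted p = 0.0203). In both tissues animal 216 had the most Anxa8. Anxa2 averaged 10.85 ± 0.08 in control forestomach and 11.82 ± 0.05 in control esophagus, a difference of -0.97 (SE 0.19, adjusted p = 0.00953). Anxa5 averaged 10.06 ± 0.23 in control forestomach and 10.99 ± 0.08 in control esophagus, a difference of -0.93 (SE 0.17, adjusted p = 0.00696), and it was called under each of the 27 alternatives. The spread within either tissue was small beside these gaps for Anxa2 and Anxa5.

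Anxa6 averaged 7.37 ± 0.32 in control forestomach and 9.08 ± 0.70 in control esophagus, a difference of -1.71 (SE 0.42, limma adjusted p = 0.0306). The highest esophagus array was control 214, which carried muscle and fibroblast genes, and without that array the difference was -1.31 (adjusted p = 0.107). With the mean of both Anxa6 probe sets it was -0.80 (adjusted p = 0.0199). The second probe set alone showed no such drop, with 6.44 to 6.59 in control forestomach, against 6.23 to 6.51 in control esophagus. Anxa3 averaged 5.53 ± 0.13 in control forestomach and 7.25 ± 0.24 in control esophagus. Its difference of -1.72 (SE 0.51) missed the threshold (adjusted p = 0.0669). With the animal as a replicate block it passed (adjusted p = 0.0126), as it did with only the 6 control arrays in the fit (adjusted p = 0.000786). It passed under 8 of the 27 alternatives and not under the other 19, with adjusted p up to 0.247. Anxa4 (-0.40) and Anxa7 (-0.26) were lower on every forestomach array without passing (adjusted p = 0.308 and 0.235). Anxa1 (-0.09) and Anxa11 (0.16) overlapped between the tissues, and Anxa9 (0.31, SE 0.30) was higher on every forestomach array with an adjusted p of 0.589.

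How many annexins were called between the control tissues varied with the arrays kept. There were 2 (Anxa2 and Anxa5) without esophagus control 216, forestomach control 214 or forestomach control 217, and 1 (Anxa5) without the 3 arrays with skeletal muscle genes together, but the same 4 when mass 426 was left out with them. With array weights there were 7, with Anxa3, Anxa4 and Anxa7 added. The share of all genes called was 6.67% in the main fit and is not given here for these other fits. These counts can therefore shift with the calls over all genes.

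Across the 4 groups the annexins fell into different orders. For Anxa8 the order by mean was flox/flox esophagus (11.18), masses (11.02), control esophagus (9.71) and control forestomach (6.69), and control forestomach alone was apart from its neighbour. For Anxa3 it was masses (8.93), flox/flox esophagus (8.08), control esophagus (7.25) and control forestomach (5.53), and the masses overlapped both esophagus groups, since mass 510 lay below esophagus control 214, while control forestomach was apart from every other group. Anxa2 ran from control esophagus (11.82) through flox/flox esophagus (11.71) and the masses (11.51) to control forestomach (10.85), and only that last gap was free of overlap. Anxa5 ran from flox/flox esophagus (11.22) and control esophagus (10.99) to control forestomach (10.06) and the masses (9.68), with both esophagus groups apart from both forestomach groups. For Anxa9 control forestomach (11.73) was first and the masses (10.85) last. For Anxa1, Anxa4, Anxa6, Anxa7 and Anxa11 each group overlapped with the next in its order. The group means of Anxa7 spanned 0.26, the narrowest of the 10, and those of Anxa8 spanned 4.48.

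Partners of the annexins were followed as a list of 13 genes, of which 11 were tested; the formyl peptide receptors Fpr1 and Fpr2 had no probe set of their own. In the masses S100a11, which binds Anxa1, rose by 1.13 (SE 0.17, limma adjusted p = 0.00299) and S100a6, another S100 partner of annexins, rose by 1.89 (SE 0.28, adjusted p = 0.00251), while 0 of 11 fell. The list median was 0.17, against 0.01 over all genes tested, of which 2.31% were called higher and 8.4% lower. S100a11 was at 12.63, 11.81 and 12.10 in masses 412, 426 and 510, against 10.999, 10.98 and 11.18 in control forestomach of 214, 216 and 217. Its order among the masses was that of Anxa1. S100a10, the partner of Anxa2, was at 10.01, 10.21 and 8.82 in the same masses, against 9.64, 9.44 and 9.67 in these controls, a difference of 0.10 (SE 0.29, adjusted p = 0.886). Its groups overlapped, with mass 510 below every control.

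Between control tissues, S100a10 was lower in forestomach by -1.73 (SE 0.29, limma adjusted p = 0.00458), S100a6 by -1.58 (SE 0.28, adjusted p = 0.00581) and Ahnak, a large scaffold bound by the Anxa2 and S100a10 complex, by -0.35 (SE 0.08, adjusted p = 0.0297). These were 3 of 11 partners, with 0 higher, where 3.16% of all genes tested were called lower and 3.51% higher. The list median was -0.35, against 0.02 over all genes tested. In the esophagus 0 of 11 partners passed, and 2 had an unadjusted p under 0.05 (limma), as did 1108 of the 15875 genes tested. In the difference between the tissues' changes 0 of 11 passed, and 2 had an unadjusted p under 0.05, as did 1664 of all genes tested. S100a6 came nearest there at 2.06 (SE 0.39, adjusted p = 0.0571).

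A list of 20 other genes of membrane repair and calcium-dependent membrane binding had 18 members tested. In the masses 3 of 18 rose and 4 fell, where 2.31% of all genes tested were called higher and 8.4% lower, and the list median was 0.13, against 0.01 over all genes. Capn2, a calcium-activated protease, rose by 1.13 (SE 0.19, limma adjusted p = 0.00406), while Capn1, its counterpart with a lower calcium need, fell by 0.50 (SE 0.11, adjusted p = 0.0126). Chmp4c, a subunit of the membrane-cutting ESCRT-III machinery, fell by 0.79 (SE 0.17, adjusted p = 0.0126), and the copine Cpne5, a calcium-dependent lipid-binding protein, fell by 0.66 (SE 0.14, adjusted p = 0.0127). Between control tissues, Cpne3 (-0.78, SE 0.14, adjusted p = 0.00518), Capn2 (-0.98, SE 0.19, adjusted p = 0.00812) and the ferlin Myof (-1.32, SE 0.35, adjusted p = 0.0418), which acts in membrane fusion and repair, were lower in forestomach, and 0 were higher. Of all genes tested, 3.16% were called lower between these tissues and 3.51% higher. In the esophagus 0 of 18 passed, with 2 at an unadjusted p under 0.05 (limma), and in the difference 0 passed, with 5 at that level. Of the 15875 genes tested, 1108 were at that level in the esophagus and 1664 in the difference.

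The annexins were also compared with each other over the 13 arrays. The arrays share groups and animals, so these correlations are descriptions. Anxa8 and Anxa3 had a Pearson r of 0.77, and Anxa8 and Anxa2 one of 0.72. With the group means taken out, these were only -0.09 and 0.22. Anxa9 ran opposite to Anxa3, with r of -0.87 over all arrays and -0.79 after the group means were taken out. Within groups, Anxa9 followed the mean of the squamous differentiation markers (r = 0.91). Anxa1 followed that of the stress keratins (r = 0.84), but equally that of the 10 squamous markers (r = 0.83), and that of the neutrophil markers (r = 0.76). Anxa6 followed those of the smooth muscle (r = 0.91) and fibroblast markers (r = 0.84). It also followed those of the endothelial (r = 0.78) and macrophage markers (r = 0.71).

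Of 15037 other tested genes, those most like the called annexins over the 13 arrays were named by Pearson r. For Anxa8 they were the squamous serine protease Tmprss11d, the receptor Tlr4 and the cell cycle kinase Cdk6, with r of 0.93, 0.93 and 0.92. For Anxa3 they were the transcription factor Cux1, the sphingomyelin synthase Sgms2 and the kinase Akt1 (0.94, 0.94 and 0.94). For Anxa2 they were Ruvbl1, Cdipt and Egln3 (0.96, 0.96 and 0.96). For Anxa5 they were the metallothionein Mt2, Akap9 and Kat6b (0.97, 0.97 and 0.96). For Anxa6 they were the laminin chain Lamb2, the caveolin Cav1 and Sh3bgrl (0.95, 0.95 and 0.94). After group means were taken out the Anxa6 values were 0.94, 0.90 and 0.93, while those of Anxa8 were 0.57, 0.77 and 0.59. Those of Anxa3 were 0.70, 0.92 and 0.80, those of Anxa2 0.93, 0.90 and 0.83, and those of Anxa5 0.86, 0.55 and 0.77.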

How the data were processed

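The authors deposited 1 table of intensity values on a linear scale for 13 arrays, made with GCRMA per the submitters' processing notes; its version is not given in the sources used here. GCRMA corrects background by probe sequence, normalizes arrays and summarizes probes. Array medians ran from 65.3 to 72.4. Precision is limited by how many arrays there are.

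The table has 34729 probe sets. A single gene was annotated for 21633 of them, more than 1 gene for 1306, and no gene for 11790. The deposited intensities were floored at 1 before log2 was taken. The probe set with the highest mean stood for a gene. A gene was tested with a log2 intensity above 5 on at least 3 arrays, which kept 15875 of 19934. Anxa6 had 2 probe sets and the other 9 annexins 1 each.

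A linear model with 4 group means used all 13 arrays (limma 3.58.1 under R 4.3.3, functions lmFit and eBayes), with 9 residual degrees of freedom, and p-values were adjusted by Benjamini-Hochberg over all genes tested. Intervals are 95% intervals of that fit. The fit was also run on simulated data in which each gene had the same spread in every group. Since the masses were more spread, that run cannot test the p-values of comparisons with the masses. Control animals 214, 216 and 217 gave both tissues by their labels. Their deviations from the group means correlated at 0.401, 0.398 and 0.315 between the tissues, and at -0.425 to 0.129 between different animals; the animal as a replicate block is an alternative. Other numbered samples are different animals.

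The rule named the 10 annexins, Anxa10, Anxa13, up to 4 called genes per list and comparison by adjusted p, and the 3 genes most like each called annexin without predicted genes. The members and lists were chosen with earlier results of these data known. Promoter sequences came from a RefSeq table.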

Additional observations from a re-analysis of the deposited data

Results flagged for a closer look

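Anxa10 stood at 11.78 in forestomach mass 426, far above every control array (3.39 to 3.82), in a gene that no comparison used because it failed the filter. All 9 glandular stomach markers measured were highest on the same array.

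For Anxa5, every flox/flox esophagus array was above the control esophagus mean and every mass was below the control forestomach mean. The difference between the changes was -0.60 (SE 0.24, limma adjusted p = 0.385), which did not pass. No annexin had an array far from the other 3 in flox/flox esophagus by Dixon's test.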

How the results depend on the processing

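Each value was recomputed under 26 or 27 alternatives (filters, probe set choice, scaling, weights, variance trend, tissue-only fits, the replicate block, a muscle covariate, and arrays left out). Over the 10 annexins and 4 comparisons, 1010 values kept direction and side of the threshold, 28 lost their call, 16 gained one and 16 changed sign. The sign changes were in annexins that were not called. The esophagus count stayed at 0 of 10 under all 27 alternatives. With single arrays left out, the forestomach count ranged from 2 to 5, that of the difference from 0 to 1, and that of the control tissues from 2 to 5. The control tissue count was 7 with array weights and 1 without the 3 arrays with skeletal muscle genes. The cause was not tested, and the share of all genes called in these fits is not given.

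Sign changes with single arrays left out gave ranges of -0.11 to 0.039 for Anxa7, -0.072 to 0.28 for Anxa11 and -0.50 to 0.13 for Anxa6 in the esophagus. In the forestomach they gave -0.012 to 0.081 for Anxa7, -0.057 to 0.48 for Anxa4 and -6.67e-05 to 0.49 for Anxa11. In the difference they gave -0.11 to 0.38 for Anxa11 and -0.018 to 0.13 for Anxa7, and between control tissues -0.021 to 0.33 for Anxa11. Without the 3 arrays with skeletal muscle genes the difference for Anxa11 was -0.023. Without these and mass 426, chosen after seeing the data, it was -0.28, and the forestomach values were -0.057 for Anxa4 and -6.67e-05 for Anxa11. Array weights with 1 weight per group were also chosen after seeing the data.

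The replicate block gave 5 annexins called between control tissues, with Anxa3 added (-1.72), and changed no other annexin call. The share of all genes called with the block is not given, so this count can shift with the calls over all genes. Quantile normalization called 515 genes higher and 1104 lower in the masses, against 366 and 1334 as deposited. For the difference the higher and lower calls were 24 and 25 with it and 12 and 15 with median centring, against 13 and 9. Neither scaling moved the median of all genes by more than 0.05.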
